A study of Mus musculus and Rattus norvegicus with 2 samples.

Results

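Fragments of 5S rRNA, the smallest RNA of the large ribosomal subunit, were examined in small RNA libraries from sperm of the cauda epididymis, the last segment of the duct, where mature sperm are held. The fragments were the listed sequences whose annotation was the 5S rRNA family of Rfam, a database of RNA families, and they numbered 1805 of 89179 mouse sequences and 3529 of 137388 rat sequences. Purified sperm of C57BL/6 mice aged 2 months gave one library, and purified sperm of Sprague Dawley rats, young adults of 450 g, gave the other. No treatment or allele is given for either, and the size fraction taken into both libraries was 18 to 45 nt. There was 1 library per species, and the sources used here do not say how many animals were pooled. Mouse values therefore stand beside rat values with no replicate error and no test, and species cannot be told apart from strain, age or library. The intervals given are at 95%. They hold counting error alone and treat each read as a separate count. Where reads are PCR copies of the same molecule, the intervals are too narrow.

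5S rRNA is made by RNA polymerase III from genes that are repeated in tandem, and its transcripts end in a short run of U where the polymerase stops. Its 5′ and 3′ ends pair with each other, and hairpin arms lead away from the junction. Sperm carry little intact ribosome, and fragments of rRNA and tRNA make up much of their small RNA. A fragment is described here by the base of 5S rRNA at which it starts and the base at which it ends, counted from 1 at the 5′ end.

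The mouse gene n-R5s100 gave these positions. In GRCm38 it lies on the minus strand of chromosome 8 and is annotated as rRNA, with 119 bases. Of 180 5S genes in GENCODE M21, 25 had exactly this sequence, all on the minus strand of chromosome 8.

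Forms that share the first base and differ in the last carried the main contrast between the libraries. The most abundant rat form ran from base 1 to base 32, and the most abundant mouse form from base 1 to base 39.

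Reads annotated as 5S rRNA numbered 23875 in the mouse, 3.45% of 691381 listed reads (interval 3.41 to 3.50), and 84272 in the rat, 4.01% of 2102735 (3.98 to 4.03). Another 110 mouse sequences had a date in place of their identifier and no count, and 0 rat sequences did. Reading the month as the count would give these 7 to 12 reads each and 988 reads together. They were left out, and 7 counted mouse sequences of 7 to 12 reads remained, against 217 in the rat. Identifiers rank sequences by count, and the tables used here skip 78279 mouse and 63001 rat identifiers. A form with 0 listed reads may therefore have been present.

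Most 5S reads belonged to few sequences, more so in the mouse. The most abundant sequence held 46.9% of the mouse 5S reads (interval 46.3 to 47.6). In the rat it held 11.7% (11.5 to 11.9). For the 10 most abundant the shares were 62.7% (mouse) and 46.9% (rat). At the other end, 928 of 1695 counted mouse sequences and 1961 of 3529 rat sequences had 1 read. The libraries shared 885 sequences exactly, which in the mouse were 52.2% of the sequences with 94.4% of the reads, and in the rat 25.1% with 84.8%. Sequences found in both libraries thus held most of the reads of each, though only a minority of the rat sequences.

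Lengths differed sharply between the libraries. The mouse reads had a modal length of 39 nt, with 12110 reads or 50.7% (interval 50.1 to 51.4), whereas 643 rat reads, or 0.763% (0.705 to 0.824), had that length. The rat reads had a modal length of 32 nt, with 13471 reads or 16.0% (15.7 to 16.2), against 596 mouse reads or 2.50%. The share of 36 to 45 nt was 71.7% for the mouse (71.1 to 72.3) and 8.33% for the rat (8.14 to 8.52), and reads of 28 to 34 nt made up 12.6% and 71.8%. Without the most abundant sequence of each library, the shares of 36 to 45 nt were 46.7% and 9.44%. Among all other listed reads, the share of 36 to 45 nt was 13.2% (mouse) and 7.78% (rat), and that of 28 to 34 nt 59.1% and 47.0%. The mouse excess of long reads was therefore larger in 5S rRNA than in the rest of the library, as a description of these libraries. Reads longer than 45 nt made up 1.22% and 0.158%, and the longest mouse read had 68 nt and the longest rat read 71 nt.

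**Figure D1:**
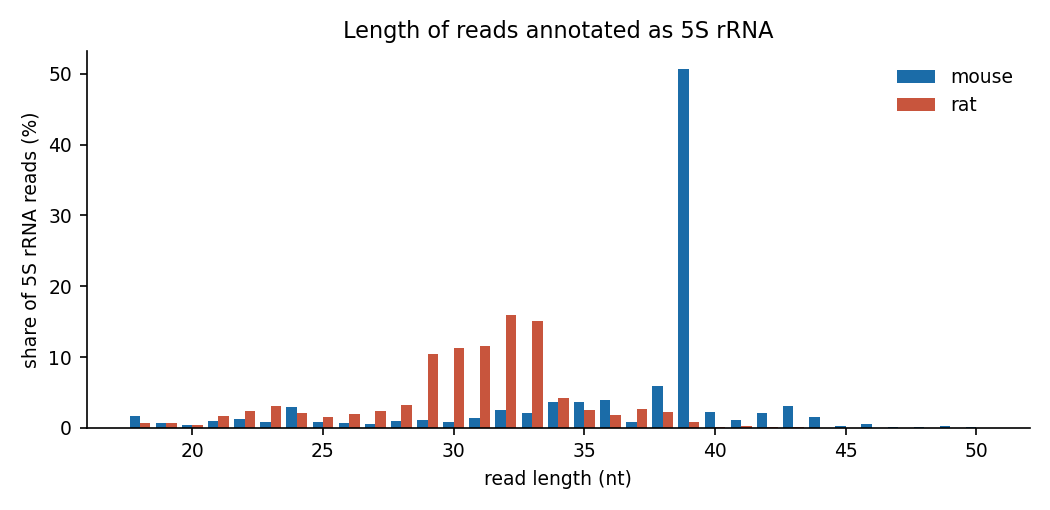
Share of the 5S reads (vertical axis, %) at each read length (horizontal axis, nt) in the mouse and rat libraries, shown up to 50 nt. Mouse reads gather at 39 nt, with 50.7%, and rat reads between 29 and 33 nt, with the mode at 32 nt.

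Nearly all reads could be placed on the gene sequence without gaps and with at most 2 mismatches, and no placement was tied. There were 23844 placed mouse reads and 84219 placed rat reads, which left 31 and 53 reads unplaced. The placed sequences numbered 1667 of 1695 in the mouse and 3491 of 3529 in the rat. The mouse gene sequence therefore served for both species.

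Reads that start at the first base were the largest group in both libraries. They numbered 16223 in the mouse, 67.9% of the 5S reads (interval 67.4 to 68.5), and 39897 in the rat, 47.3% (47.0 to 47.7). This order rested on the leading form, since without the most abundant sequence of each library the shares were 39.6% and 40.3%. Over distinct sequences the shares were close, at 16.6% and 16.8%. Starts a few bases further in, at bases 2 to 6, were used by 679 mouse reads, or 2.84%, and 8428 rat reads, an interval of 9.80 to 10.2%. In the rat, 2302 reads started at base 5 and 2545 at base 6, against 249 and 141 in the mouse. These rat reads mostly ended at bases 30 to 33, as the full-length 5′ forms did, and 708 of those from base 5 ended at base 32.

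The 3′ ends of the reads that start at base 1 set the libraries apart. In the mouse, 11898 of the 16223 reads ended at base 39, or 73.3% (interval 72.7 to 74.0). In the rat, 330 of the 39897 reads did, or 0.827% (0.741 to 0.921). Rat reads ended instead at bases 29 to 34, with 89.0% (88.7 to 89.3), where 10.3% of the mouse reads ended (9.82 to 10.8). The mouse ends thus sat at 1 base, and the rat ends were spread over several neighbouring bases with no single base above 26.7%. A second, smaller group of rat ends lay at bases 37 to 39, with 7.14%.

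The counts of the single forms show the same contrast. The form of bases 1 to 39 was read 11205 times in the mouse (Poisson interval 10998 to 11414) and 297 times in the rat (264 to 333). It was the 10th most abundant listed sequence of the mouse library. Its neighbour of bases 1 to 38 had 931 mouse and 1311 rat reads, and that of bases 1 to 40 had 274 and 9. The mouse count thus fell steeply on both sides of base 39. By share of the 5S reads, the form of bases 1 to 38 was larger in the mouse, at 3.90%, against 1.56% (rat). The form of bases 1 to 32 had 471 mouse reads (429 to 516) and 9883 rat reads (9689 to 10080). The form of bases 1 to 33 had 259 and 9740, that of bases 1 to 30 had 90 and 5407, and that of bases 1 to 31 had 202 and 4415. In the rat the forms of 32 and 33 bases were nearly equal, and their intervals overlapped. The form of bases 1 to 37 was low in the mouse, with 20 reads between 418 for bases 1 to 36 and 931 for bases 1 to 38, and had 1054 reads in the rat. The mouse forms of bases 1 to 28 and 1 to 41 were among those with a date, which would stand for 11 and 12 reads.

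**Figure D2:**
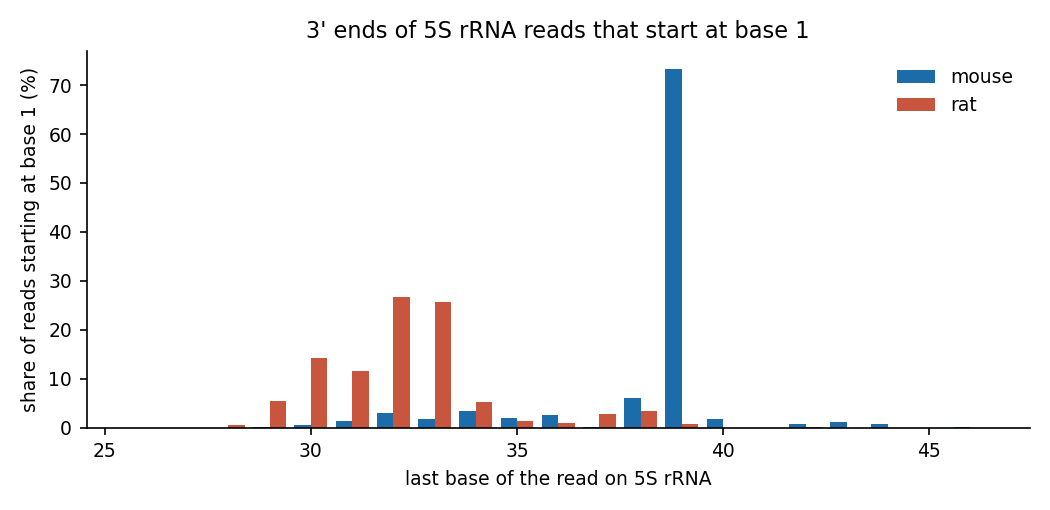
Share of the reads that start at base 1 (vertical axis, %) by their last base on 5S rRNA (horizontal axis) in the mouse and rat libraries. The mouse reads show 1 tall bar at base 39, with 73.3%, while the rat reads are spread over bases 29 to 34, which hold 89.0%.

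A computed fold placed these ends in different parts of the same arm. The minimum free energy structure of the 119 bases, from RNAfold, paired bases 1 to 9 with bases 110 to 118 and bases 29 to 32 with bases 45 to 48, and left a hairpin loop at bases 37 to 40. The leading mouse end, base 39, lay in that loop, and the leading rat end, base 32, was the last base of the paired run. In the fold, 33.9% of bases 1 to 118 were unpaired. Of the mouse reads that ended before base 119, 77.4% ended at an unpaired base, or 49.4% without those ending at base 39. Of the rat reads, 33.7% did, or 40.8% without those ending at base 32. The fold is a prediction for RNA alone and holds no ribosomal protein.

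Few mouse reads started just after the leading mouse end. At base 39 in the mouse, 12239 reads ended and 8 reads started at the next base. At base 32 in the rat, 13717 reads ended and 481 started at the next base. Other boundaries had ends and starts on both sides. At base 38, 1175 mouse reads ended and 301 started at base 39, against 2147 and 1575 in the rat. At base 95, 1048 mouse reads ended and 373 started at base 96, against 1000 and 478 in the rat. The counts in this paragraph so far leave out reads that match the RNA under other annotations. With those reads counted, 1254 mouse and 1378 rat reads started at base 96, and 1049 and 1002 ended at base 95.

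**Figure D3:**
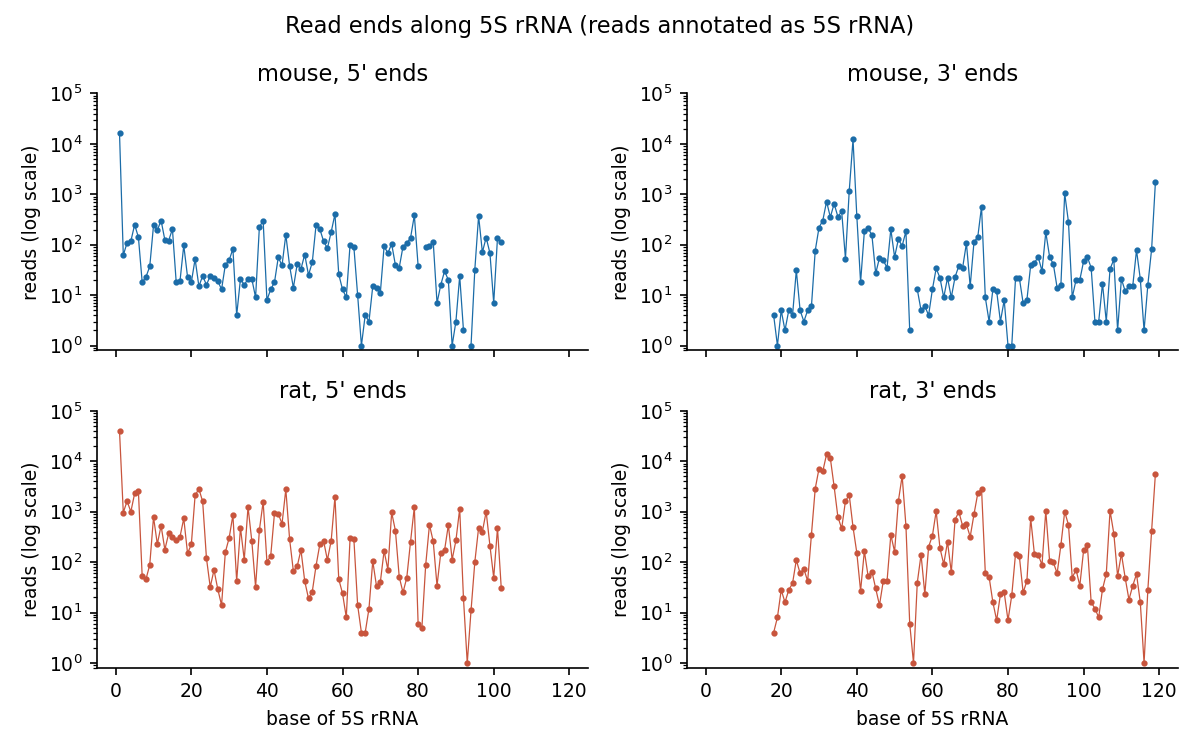
Number of reads annotated as 5S rRNA (vertical axes, log scale) that start (left) or end (right) at each base (horizontal axes), in the mouse (top) and the rat (bottom), with no point where no read was listed. Starts peak at base 1 in both libraries, and 3′ ends peak at base 39 in the mouse, with 12239 reads, and at base 32 in the rat, with 13717.

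Depth along the RNA fell after the 5′ fragments. In the mouse 14883 reads covered base 39 and 2652 covered base 40. In the rat 14391 covered base 39 and 13997 covered base 40, since its 5′ fragments had mostly ended before. The highest depth was 18498 reads at base 29 in the mouse and 59153 reads at base 24 in the rat, and the lowest 1694 at base 52 and 5523 at base 76. The highest depth was 10.9 times the lowest in the mouse and 10.7 times in the rat. These depths leave out matching reads under other annotations, which mostly come from the 3′ end. Base 119 was covered by 1732 mouse and 5652 rat reads here, against 8502 and 22447 under any annotation.

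Fragments from inside the RNA neither start at base 1 nor end at base 119. They made up 24.7% of the mouse reads annotated as 5S rRNA (interval 24.1 to 25.2), and for the rat 45.9% (45.6 to 46.2). Matching reads under other annotations, which mostly go past base 119, are not counted in these shares. Examples that start at base 39 or later are shown because they hold the shared ends at bases 73 and 95.
Bases 39 to 73: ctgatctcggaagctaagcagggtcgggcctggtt
Bases 45 to 73: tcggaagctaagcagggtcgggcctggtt
Bases 53 to 95: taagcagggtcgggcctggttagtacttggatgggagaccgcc
Bases 58 to 95: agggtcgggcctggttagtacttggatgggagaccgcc

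The fragment of bases 22 to 52 had 2365 rat reads and 2 mouse reads, and was the fifth most abundant rat 5S sequence. Around it, 5129 rat reads ended at base 52, of which 2459 started at base 22 and 1170 at base 21, while 95 mouse reads ended there. This fragment spans the arm that holds the mouse end at base 39. The fragment of bases 45 to 73 had 1219 rat and 63 mouse reads. That of bases 39 to 73 had 704 rat and 242 mouse reads, which per 100 5S reads came to 0.835 in the rat and 1.01 in the mouse. Base 73 was a shared end, with 569 mouse and 2863 rat reads. The fragments that end at base 95 went the other way in length: bases 53 to 95, of 43 nt, had 182 mouse and 9 rat reads, and bases 58 to 95, of 38 nt, had 148 and 132. Of the reads that start at base 58, 175 of 406 in the mouse ended at base 95, while in the rat 741 of 1982 ended at base 90 and 644 at base 86. From the same start, the leading rat ends lay before the leading mouse end.

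The 3′ end of 5S rRNA was mostly filed under other annotations. Among reads annotated as 5S rRNA, 1732 mouse reads, or 7.25% (interval 6.93 to 7.59), and 5652 rat reads, or 6.71% (6.54 to 6.88), ended at base 119, and none went past it. When all listed reads were placed on the gene with up to 3 extra bases allowed at the 3′ end, 6884 mouse reads over 529 sequences and 16803 rat reads over 602 sequences matched 5S rRNA under other annotations. Of these, 97.3% in the mouse and 99.9% in the rat went past base 119. The sequences below show the fragments on either side of that limit, with bases past base 119 in capitals.
Bases 96 to 119: tgggaataccgggtgctgtaggct
Bases 96 to 119 and 1 more: tgggaataccgggtgctgtaggctT
Bases 91 to 119 and 1 more: ccgcctgggaataccgggtgctgtaggctT
Bases 98 to 119 and 1 more: ggaataccgggtgctgtaggctT
Bases 103 to 119 and 1 more: accgggtgctgtaggctT

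Counted under any annotation, reads that reach base 119 came to 8502 in the mouse, 27.6% of all 5S reads (interval 27.1 to 28.1), and 22447 in the rat, 22.2% (22.0 to 22.5). Only 20.4% of these mouse reads and 25.2% of these rat reads were annotated as 5S rRNA. Of the reads that reach base 119, 21.2% in the mouse and 25.2% in the rat stopped there, 64.4% and 63.2% had 1 more base, and 14.3% and 11.4% had 2 more. The extra bases were T only in 96.9% of such mouse reads and 97.3% of such rat reads. The gene sequence used here stops at base 119, so whether these T bases are encoded after it was not tested. The libraries were thus close to each other in how the 3′ end was finished, unlike in where the 5′ fragments ended. With these reads added, 5S rRNA held 4.45% of the listed mouse reads and 4.81% of the listed rat reads, and starts at base 1 were 52.9% and 39.5% of the 5S reads.

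The other annotations differed between the libraries. In the mouse, 32.02% of these reads were annotated as rRNA, 31.3% as unknown and 8.54% as mRNA. Another 28.1% were annotated as piRNA, a class of small RNA of the germline. In the rat, 87.8% were annotated as mRNA and 12.2% as rRNA. The fragment of bases 96 to 119 had 349 mouse and 414 rat reads as 5S rRNA, or 1.46 and 0.491 per 100 reads so annotated. With 1 more T it had 541 mouse reads annotated as piRNA and 451 rat reads annotated as mRNA. The most abundant such rat fragment, bases 91 to 119 with 1 more T, had 2642 reads as mRNA, against 73 mouse reads as piRNA. The fragment of bases 98 to 119 with 1 more T had 1744 rat and 144 mouse reads. Per 100 reads annotated as 5S rRNA, these came to 2.07 and 0.603. The fragment of bases 103 to 119 with 1 more T had 1242 rat and 323 mouse reads. On the same scale these were close, at 1.47 and 1.35. The fragment of bases 103 to 119 with 1 more T was annotated as rRNA in the rat and as piRNA in the mouse. For bases 96 to 119, 1 added base thus went with another annotation in both libraries.

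Reads that reach the 3′ end also differed in length between the libraries. Under any annotation, 39.3% of them in the mouse (interval 38.3 to 40.3) and 12.9% in the rat (12.5 to 13.3) were of 36 to 45 nt, while 37.6% and 37.95% were of 18 to 25 nt. Their modal length was 24 nt (mouse) and 30 nt (rat). The long 3′ forms of the mouse included bases 77 to 120, with 463 mouse and 10 rat reads.

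**Figure D4:**
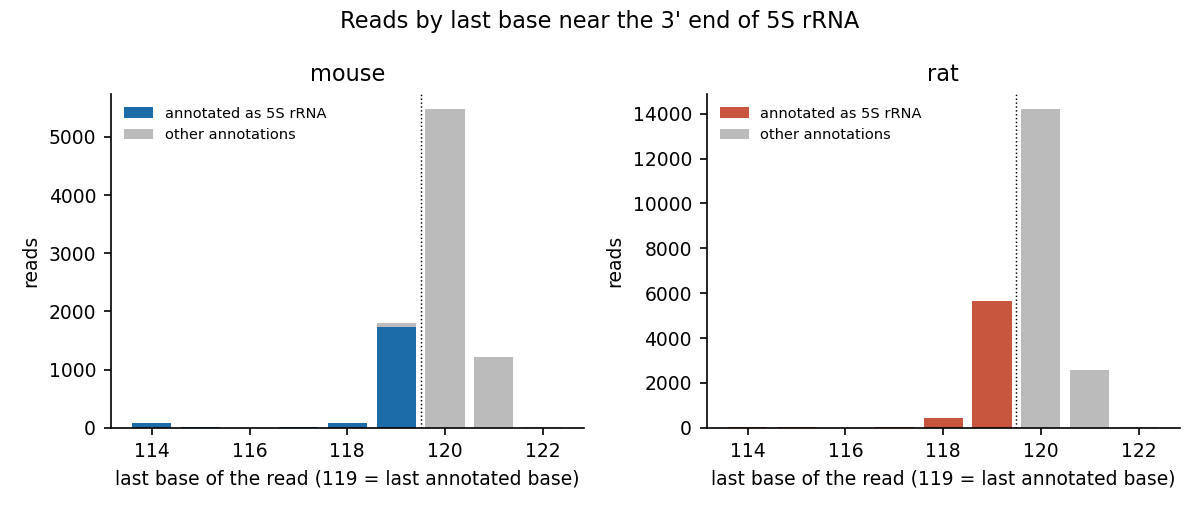
Number of reads (vertical axes) by their last base near the 3′ end (horizontal axes, with base 119 the last annotated base and the dotted line just past it) in the mouse (left) and the rat (right). Coloured bars are reads annotated as 5S rRNA and grey bars are matching reads under other annotations, which hold 5473 mouse and 14192 rat reads at 1 base past the end.

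The deposited mismatches of the mouse mostly lay between database entries and the gene. By the deposited field, 85.5% of the mouse 5S reads carried a mismatch (interval 85.1 to 86.0), and in the rat 9.76% (9.56 to 9.96). Against the gene sequence, 6.47% of the placed mouse reads (6.16 to 6.79) and 5.29% of the placed rat reads (5.14 to 5.45) did. Of the mouse reads with deposited mismatches, 92.6% matched the gene perfectly, and of the rat reads with deposited mismatches 47.7% did. The leading mouse form was filed with T25G and A31G, where the first letter is the base of the entry, the number the position in the read from 1 and the last letter the base read, and it matched n-R5s100 exactly. The same sequence in the rat table had 0 mismatches. Bases 1 to 39 of n-R5s100 occurred in 33 of the 180 mouse 5S genes, 32 of them on chromosome 8. Since an entry used up both mismatches allowed, a mouse read with a further mismatch to it could be listed only through another entry.

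Mismatches to the gene were most frequent at a few positions of the read and at a few bases of the RNA. They are named with the base of the gene first, then its position and the base read. In the mouse, 80 of the 117 possible forms of bases 1 to 39 with 1 mismatch were listed, with 686 reads against 11205 of the exact form, and 69.4% of these reads had the mismatch at position 2, 23 or 37. A23C had 106 reads and G37A 87 reads. A further 8 forms had a date in place of their count. In the rat, 83 of the 96 possible forms of bases 1 to 32 were listed, with 727 reads against 9883, and A32G, at the last base, led with 150 reads, followed by A23C with 134. Of these rat reads, 40.99% had the mismatch at position 2 or 23, and a form of 32 bases has no position 37. Over all placed reads, mismatches lay at positions 2, 23 and 37 in 51.0% of cases for the mouse and 41.6% for the rat. The values were 31.1% and 34.7% among reads that start past base 1. These shares depend on read length, since 16456 of 23844 mouse reads but 5556 of 84219 rat reads reached position 37. Of the reads that reached it, 1.74% (mouse) and 1.84% (rat) were mismatched there. At position 23 the shares per read were 1.60% and 1.74%. All 3 other bases were found at position 23, with 512 reads of A23C, 262 of A23T and 139 of A23G over all rat 5S reads.

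The mismatches at positions 23 and 37 went with the position in the read more than with the base of 5S rRNA. Among reads that start at base 1, where both are the same, position 23 was mismatched in 1.63% in the mouse library (interval 1.44 to 1.84) and 2.22% in the rat library (2.08 to 2.37). Among reads with other starts, base 23 of the RNA was mismatched in 4 of 2209 mouse reads, or 0.181% (0.0494 to 0.463), and in 28 of 19251 rat reads, or 0.145% (0.0967 to 0.210). In reads with other starts, position 23 of the read was mismatched in 1.51% for the mouse (1.23 to 1.84) and 1.26% for the rat (1.15 to 1.37). The rat share was thus below the 2.22% of reads that start at base 1, with intervals apart. Position 37 showed the same, with 1.18% (mouse) and 2.02% (rat) among reads with other starts, against 0.380% and 0.113% at base 37 of the RNA. Too few reads with other starts covered base 2 to tell the same for position 2: 0 of 62 mouse reads and 2 of 964 rat reads were mismatched there. Outside positions 2, 23 and 37, mismatches came to 0.0955% of the bases read in the mouse library and 0.112% in the rat library.

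**Figure D5:**
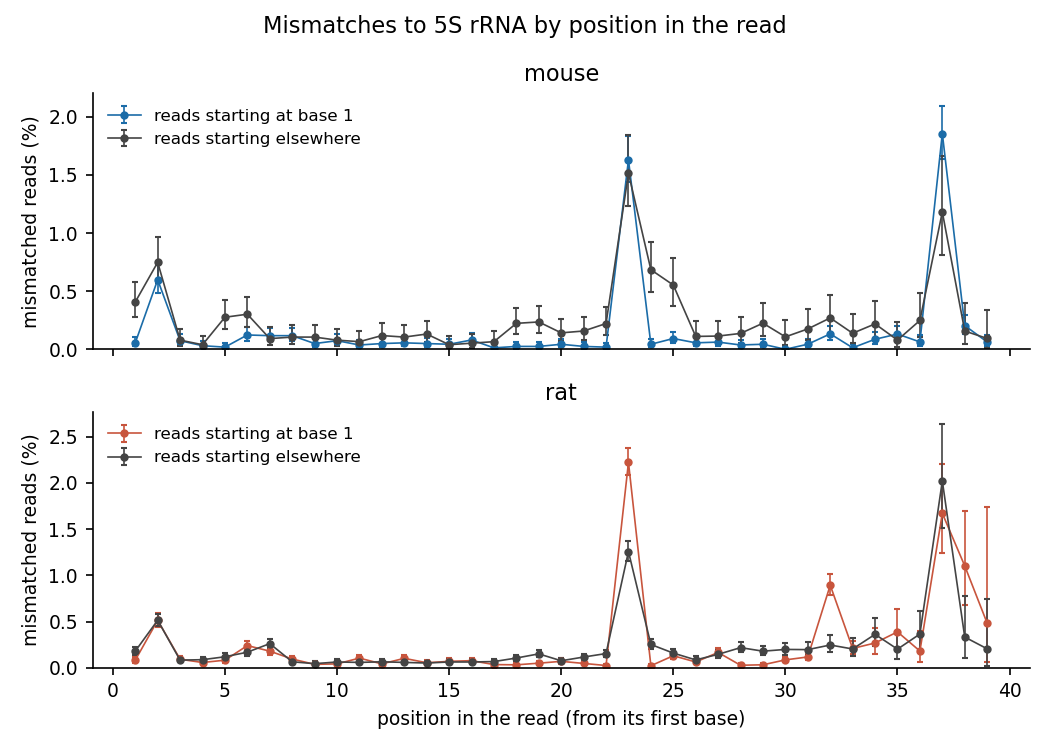
Share of placed reads with a mismatch to the gene (vertical axes, %) at each position of the read (horizontal axis, from its first base) in the mouse (top) and the rat (bottom), with exact 95% intervals for counting error. Reads that start at base 1 and reads that start elsewhere both peak at positions 23 and 37, where the mouse shares are 1.63% and 1.86% for the first group and 1.51% and 1.18% for the second.

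Some bases of the RNA were mismatched at many positions of the read. Base 62 was mismatched in 125 of 2723 mouse reads, or 4.59% (interval 3.84 to 5.45), the highest share of any base in that library, and in 139 of 13180 rat reads, or 1.05% (0.887 to 1.24). Without reads that have base 62 at position 2, 23 or 37, the shares were 4.44% and 1.04%. In the mouse they lay at 27 positions of the read, and T62A led with 78 reads, before T62C with 25 and T62G with 22. Base 119, the last annotated base, was mismatched in 2.37% of the mouse reads over it (1.70 to 3.20) and 2.49% of the rat reads (2.10 to 2.94). These were reads annotated as 5S rRNA, and base 119 was the last base of each. Reads under other annotations, most of which go past base 119, were not counted here. Position 32 of the read, where A32G lies, was mismatched in 0.893% of the rat reads that start at base 1 (0.784 to 1.01), against 0.247% (0.167 to 0.352) of those with other starts. The share at position 32 thus differed with the start of the read, as that at position 23 did in the rat. The share at position 2 did not, with 0.514% in both groups of rat reads.

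Reads on the minus strand of the entries were few. The mouse had 15 such sequences with 17 reads and the rat 9 with 15 reads. After they were turned back, 0 mouse reads and 6 rat reads matched the strand opposite to 5S rRNA, and the others did not match it on either strand. For the mouse, a count of 0 taken to allow up to 3 reads limits the share to 0.0126% of the 5S reads, and the exact interval reaches 0.0154%.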

How the data were processed

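Per the file headers, the deposited values are raw counts of reads per distinct sequence, with the strand, 1 assigned entry of miRBase, Rfam or GenBank and at most 2 mismatches. Bowtie 0.12.7 is named in the submitters' processing notes, as are mm9 and rn5, whose roles they leave unstated. The sources used here do not give the adapter trimming. Sequences matched on the minus strand were reverse-complemented.

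Reads were placed without gaps, with at most 2 mismatches, at least 15 bases on the gene and up to 3 past its end, on the commonest sequence among the GENCODE M21 5S genes (25 of 180, GRCm38). Placement was tested on simulated reads. Shares carry Clopper-Pearson and counts Poisson 95% intervals (SciPy 1.17.1). The fold came from RNAfold 2.7.2. Named sequences were the 10 most abundant of each library, those leading at the 5 most used starts and ends, forms of the leading mouse sequence and the 5 commonest mismatches. Those under other annotations, and further inner fragments and ranges, were chosen after their values were seen. The members and lists were chosen with earlier results of these data known. The letters of fragments that start before base 39 are not reported here.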

Additional observations from a re-analysis of the deposited data

Results flagged for a closer look

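Reads outside those annotated as 5S rRNA matched its sequence: 6884 in the mouse and 16803 in the rat, mostly from its 3′ end. In the mouse table, 988 further reads would belong to 5S sequences whose count stands as a date.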

How the results depend on the processing

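With 1 library per species, depth limits only the counting error, and each value below, except the 1 with counts restored from dates, lay outside the counting interval of the reported share. Values are mouse and then rat. Counted over distinct sequences, 5S rRNA held 1.96% and 2.57% of the listed sequences, 36 to 45 nt held 39.6% and 19.2%, starts at base 1 16.6% and 16.8%, ends at base 119 5.01% and 5.75%, and mismatches 43.3% and 60.6%. Without the most abundant sequence, 36 to 45 nt held 46.7% and 9.44%, starts at base 1 39.6% and 40.3%, ends at base 119 13.7% and 7.60%, and mismatches 12.2% and 6.00%. Under any annotation, 5S rRNA held 4.45% and 4.81% of the listed reads, 36 to 45 nt 64.3% and 8.95%, starts at base 1 52.9% and 39.5%, and ends at or past base 119 27.6% and 22.2%. Among perfect deposited matches, starts at base 1 held 1.39% and 49.5%, since the entries given to the mouse forms differ from them at base 25. Sequences of at least 10 reads had mismatches in 2.49% and 1.64% of their reads. By the deposited field, an alternative chosen after seeing the data, mismatches held 85.5% and 9.76%. With counts restored from dates, the mouse share of 5S reads was 3.48%, inside the interval. The order of the libraries turned for starts at base 1 (distinct sequences, without the most abundant sequence and perfect deposited matches), for ends at base 119 and for mismatches (distinct sequences each). The counting intervals of the libraries were apart only for perfect deposited matches and for mismatches. In the other cases they overlapped, so the libraries were close there. No paired analysis was possible because each species has 1 library.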

Other observations

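Reads that hold the first 18 bases of 5S rRNA after 1 to 3 other bases came to 23 mouse and 250 rat reads, with 0 of them annotated as 5S rRNA in either library.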
